A study of Drosophila melanogaster with 3 samples.

Results

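The genes described here encode core Polycomb group proteins of the fruit fly Drosophila melanogaster. They are ph-p, ph-d, Pc, Psc, Su(z)2, esc, E(z), Sce and pho, 9 of the 13945 protein-coding genes annotated on the chromosome arms analysed. The list was selected on measured values of these data, since NfI peaks at ph-p were among the strongest, and the peaks are therefore described with no test. NfI is the Drosophila protein of the conserved nuclear factor I group of transcription factors, and its positions on chromatin were measured by chromatin immunoprecipitation and sequencing (ChIP-seq). The material was whole embryos of mixed sex, collected at 12 to 24 h from 1 transgenic line that carries NfI joined at its C terminus to green fluorescent protein (GFP). The 3 libraries are biological replicates 2, 3 and 4 of this single group, so that no genotype or treatment is compared, and embryos hold many tissues whose shares of a peak cannot be told apart. The collection time is that of the source label, and an age field that conflicts with it was not used. The labels also conflict on the assay, since a description speaks of input controls where the assay and antibody fields name ChIP of NfI, and the libraries were taken here as immunoprecipitates.

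Polycomb group proteins keep genes silent through cell divisions, and in the fly embryo they are best known for holding homeotic genes off outside their proper segments. Polycomb repressive complex 1 contains Polyhomeotic (from the neighbouring duplicate genes ph-p and ph-d), Polycomb (Pc), Posterior sex combs (Psc) or its relative Su(z)2, and the ubiquitin ligase Sex combs extra (Sce). Polycomb repressive complex 2 contains the histone H3 lysine 27 methyltransferase E(z) and its partner esc, and pho encodes a DNA-binding protein that recruits both complexes to Polycomb response elements (PREs).

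The sequence at 4 summits is given first: those of ranks 7 and 131, because the duplicate genes ph-p and ph-d differ there, that of rank 43 as the strong peak near Pc, and that of rank 4932 near Sce for its motif. Each run is on the plus strand of assembly dm6 and is centred on a summit, the base of highest signal in a peak, or cut short where a transcribed untranslated region begins. In the first run, X:2137239-2137439 at ph-p, the capitals mark bases for which an alignment found no counterpart upstream of ph-d. In the second run, X:2123989-2124189 upstream of ph-d, the capitals mark TTGGCA, a single arm of the nuclear factor I site, and the homeodomain motif TAATTA. A further run, 3L:21304468-21304608, lies beyond the 3' end of Pc at the start sites of CG11309 and CG7632. The last run, 3R:27677189-27677389 beyond the 3' end of Sce at the Hsdl2 promoter, has in capitals TATCGATA, a site of DREF and BEAF-32.
ph-p: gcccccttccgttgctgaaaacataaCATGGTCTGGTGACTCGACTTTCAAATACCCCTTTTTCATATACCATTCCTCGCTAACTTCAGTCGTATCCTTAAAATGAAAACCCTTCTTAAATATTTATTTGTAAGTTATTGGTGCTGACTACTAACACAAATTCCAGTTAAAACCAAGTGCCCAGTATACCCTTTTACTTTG
ph-d: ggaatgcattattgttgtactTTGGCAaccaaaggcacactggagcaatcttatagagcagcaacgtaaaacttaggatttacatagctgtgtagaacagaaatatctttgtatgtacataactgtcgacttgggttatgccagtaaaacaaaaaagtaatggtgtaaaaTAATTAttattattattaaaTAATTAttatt
CG11309: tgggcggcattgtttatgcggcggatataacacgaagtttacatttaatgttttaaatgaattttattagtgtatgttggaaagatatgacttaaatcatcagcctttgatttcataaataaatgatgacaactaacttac
Hsdl2: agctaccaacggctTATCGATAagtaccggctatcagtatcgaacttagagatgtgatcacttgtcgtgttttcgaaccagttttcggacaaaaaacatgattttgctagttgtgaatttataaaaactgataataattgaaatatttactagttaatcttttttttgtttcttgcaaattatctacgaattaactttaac

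NfI peaks clustered at the polyhomeotic pair, stood singly at the E(z) promoter, were stronger beside Pc and Psc than at their start sites, and were not in the optimal list around esc or pho. The optimal list holds the 5806 peaks that the authors kept for reproducibility, and their signals ran from 172.684 to 8794.25. Ranks count from 1 for the strongest. A summit within 500 bp of an annotated transcription start site (TSS) was called a promoter summit. By that rule 5 of the 9 genes had an optimal promoter summit (ph-p, ph-d, Psc, Su(z)2 and E(z)), beside 26.1% of all protein-coding genes. In the gene body with 10 kb on each side, 7 of the 9 genes had an optimal summit, beside 69.3% of all genes. The windows held 26 distinct summits, of which 7 lay at promoters of these genes, 5 at promoters of neighbours and 14 elsewhere, 8 of these in intergenic sequence and 6 in introns. The density was 11.2 summits per 100 kb of the windows, against 4.34 per 100 kb of the arms, a ratio of 2.57. The windows are centred on genes, while the arms include sequence far from any gene. The window of ph-p, whose strong peaks led to the choice of the list, held 12 of the 26 summits. The ratio therefore does not describe the genes evenly.

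**Figure D1:**
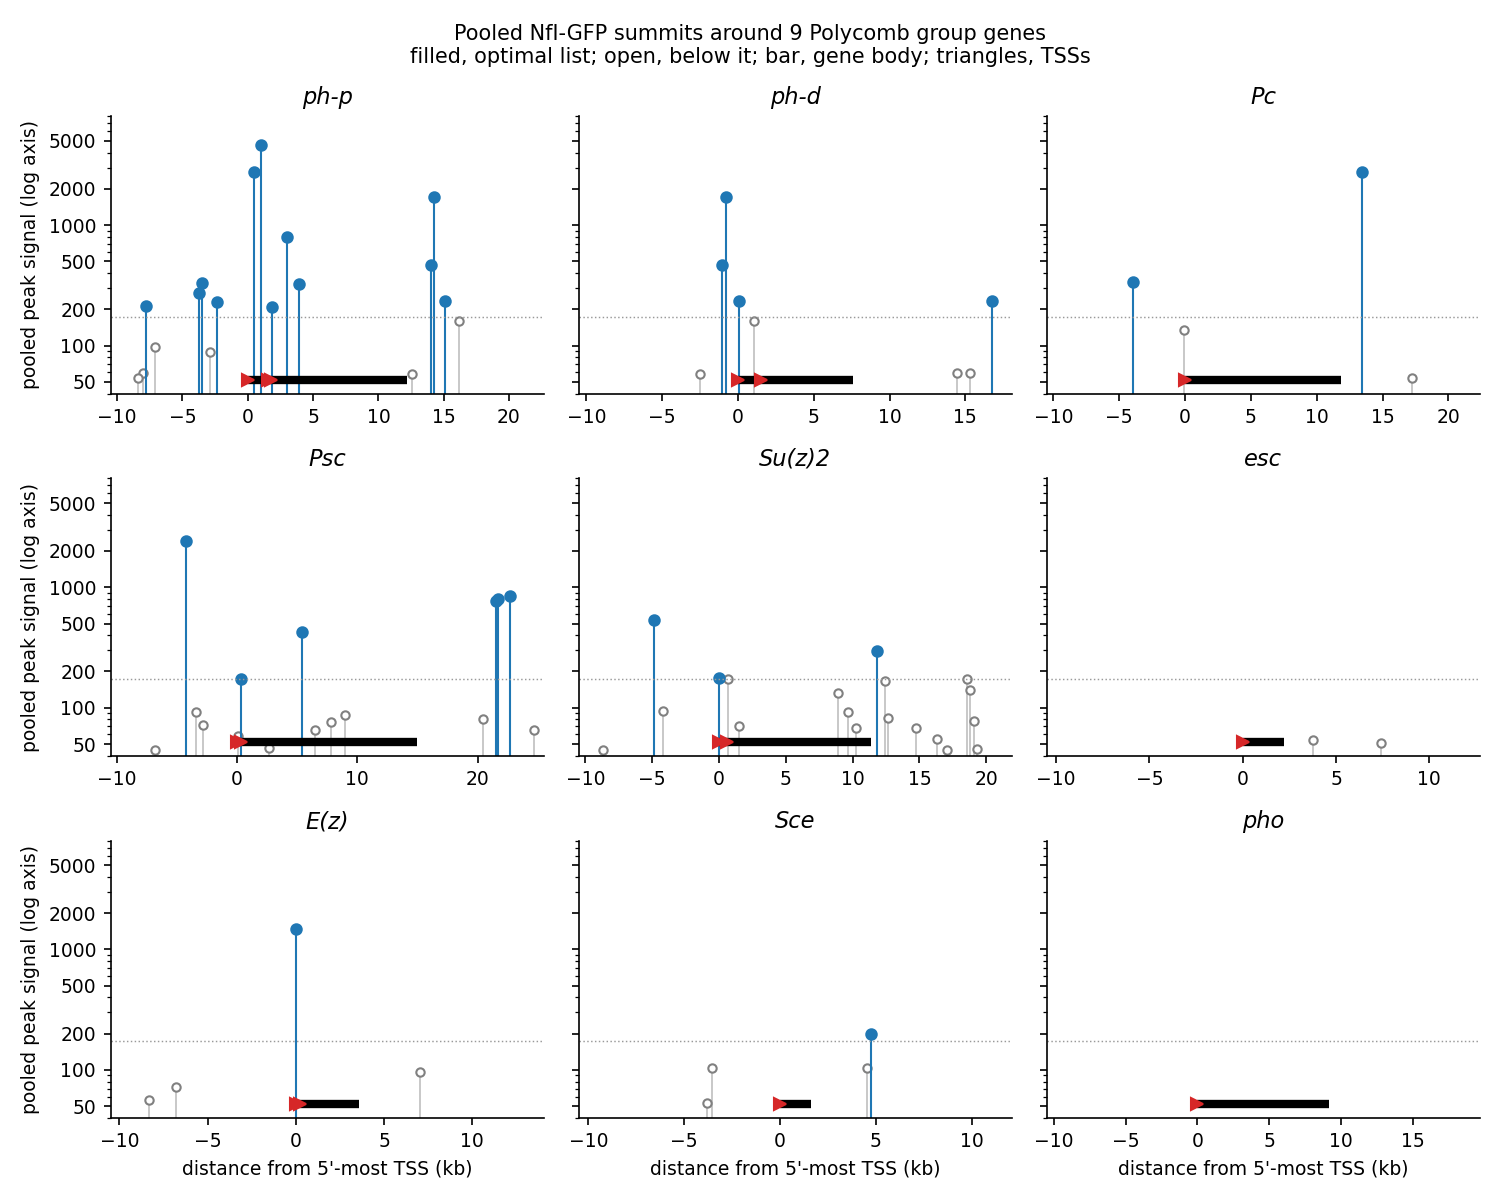
Signal of each pooled peak (log axis) against the distance of its summit in kb from the most upstream TSS of each of the 9 genes, positive in the direction of transcription. Filled points are in the optimal list and open points are pooled peaks below it, the dotted line is the lowest optimal signal (172.684), the bar is the gene body and triangles are TSSs. The window of ph-p holds 12 filled points, and those of esc and pho hold none.

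The strongest peak at ph-p spanned X:2137116-2137566, with its summit at 2137339 in an intron, 484 bp upstream of the middle of 3 annotated TSSs of the gene (FBgn0004861, X:2126210-2138371, minus strand). Its optimal signal of 4608.83 ranked 7 of 5806, and 4 of the 3643 genes with a promoter summit when each gene is represented by its strongest. In the replicate lists the peak ranked 30 in replicate 2, 5 in replicate 3 and 3 in replicate 4. Relative signal, the signal of the strongest overlapping replicate peak divided by the median of the 5806 strongest peaks of that replicate, was 9.87, 16.4 and 20.4 in the same order, a mean of 15.6 ± 5.34 (SD, n = 3). Replicate 2 was the lowest. The summits of these replicate peaks lay 459, 501 and 509 bp upstream of that TSS, so that only the first met the 500 bp rule.

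The second peak at ph-p, X:2137690-2138122, had its summit at 2137898 in the 5' untranslated region, 473 bp downstream of the first TSS. It ranked 40, and its ranks in replicates 2, 3 and 4 were 36, 46 and 77. Its relative signal was 9.49, 8.55 and 7.76, a mean of 8.60 ± 0.865 (SD, n = 3). These values spread less than those of the stronger peak, and its ranks fell within the strongest 100 peaks of every replicate.

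A weaker promoter summit at ph-p lay at 2136517, 105 bp from the most downstream TSS, with a signal of 210.359 and rank 4562. At least 3 optimal promoter summits were found at 0.33% of all genes, 46 of 13945. Inside the gene, intronic summits stood 1280 bp downstream of the nearest TSS (rank 653) and 2177 bp downstream (rank 2613). Upstream, an intergenic summit ranked 4041, and 2 adjacent summits lay at D2hgdh, which encodes a D-2-hydroxyglutarate dehydrogenase (ranks 2558 and 3255). The last lay in an intron of Pgd, the gene of 6-phosphogluconate dehydrogenase (rank 4449). With 3 summits that belong to the start of ph-d, the window of 32.2 kb held 12 optimal summits, a number reached by 16 of the 13945 genes (0.115%). The median over all genes was 1 summit in windows with a median length of 22.2 kb.

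The promoter of ph-d (FBgn0004860, X:2115727-2123286, minus strand) carried a weak summit, and the stronger signal stood upstream of it. The promoter summit at 2123244 lay 42 bp from the TSS in the 5' untranslated region, with a signal of 236.364 and rank 3963. Its relative signal averaged 0.863 ± 0.0692 (SD, n = 3), from 0.895, 0.911 and 0.784 in replicates 2, 3 and 4, just below the median of the strongest peaks in each. The replicate peaks did not share a summit position. Their summits lay 50 bp upstream of the TSS in replicate 2, and 166 and 140 bp downstream in replicates 3 and 4. Replicate 3 also had a summit 80 bp from the optimal one, with a relative signal of 0.197.

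The upstream peak, X:2123888-2124398, had its higher summit at 2124089, in intergenic sequence 803 bp from the TSS. It had a signal of 1715.11 and rank 131, and ranked 83, 134 and 442 in replicates 2, 3 and 4. Its relative signal was 6.63, 5.66 and 3.46, a mean of 5.25 ± 1.62 (SD, n = 3), with replicate 4 the lowest. A second summit in the same peak, at 2124307, lay 1021 bp from the TSS and ranked 1556, with a signal of 471.153. Replicate 4 had no separate summit within 150 bp of it. A further summit in the window, rank 3974, lay in an intron of csw, which encodes the tyrosine phosphatase Corkscrew.

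The 5' ends of the polyhomeotic pair could be aligned in 4 blocks, which place the summits of both genes in one frame. Counting upstream from the ph-d promoter, the blocks were 90.7% identical over 529 aligned positions, 70.5% over 387, 81.0% over 358 and 100% over 24. The strongest ph-p summit (2137339) fell in none of them. It lay in a stretch of 208 bp between blocks 1 and 2, X:2137265-2137472, for which ph-d has 15 bp, X:2123697-2123711. The ph-p summit of rank 40 (2137898) and the ph-d summit of rank 131 (2124089) both fell between blocks 2 and 3, in stretches of 98 bp at ph-p and 209 bp at ph-d that were not aligned. The weaker ph-d summits lay inside blocks, the promoter summit in block 1 and the summit of rank 1556 in block 3. The ph-p sequence aligned to these summits held no optimal summit. How reads that match both genes were treated is not stated, and their part in these values was not tested.

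**Figure D2:**
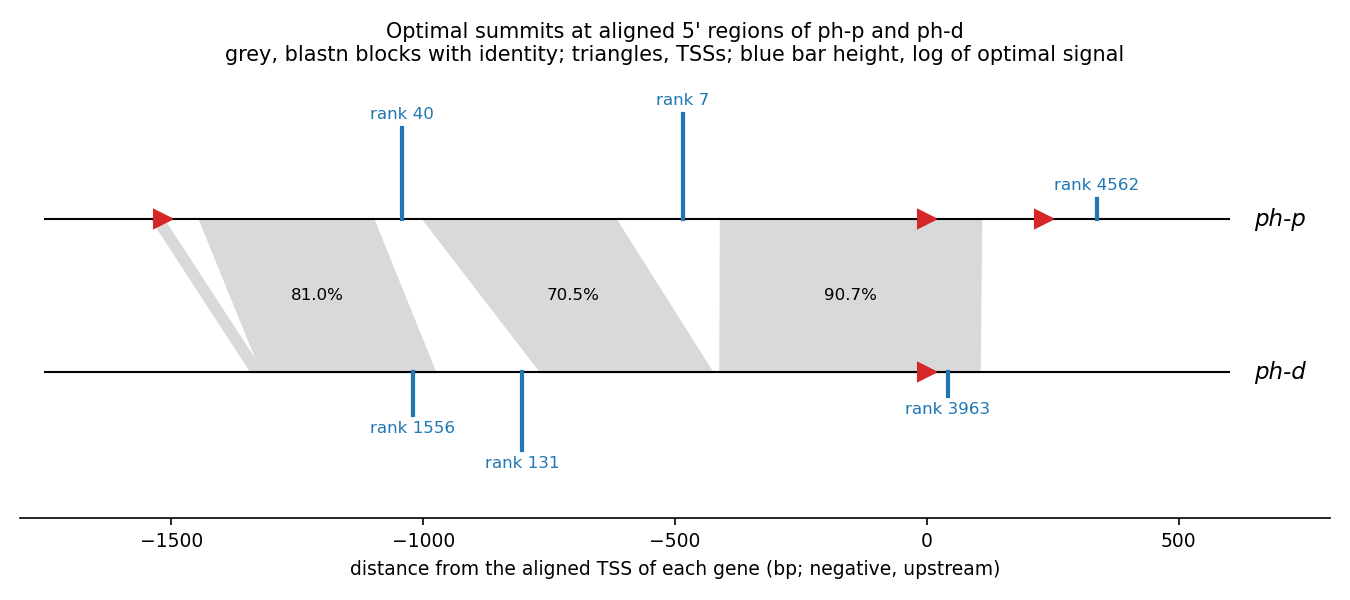
The 5' regions of ph-p (above) and ph-d (below), against the distance in bp from the TSS that the alignment pairs, negative upstream. Grey bands join aligned blocks with their identity, triangles are TSSs, and blue bars are optimal summits with heights on a log scale of signal. The bar of rank 7 at ph-p stands in a gap between blocks, and the bars of rank 40 at ph-p and rank 131 at ph-d stand in the same gap.

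Around Pc, which encodes the chromodomain protein that binds trimethylated histone H3 lysine 27 (FBgn0003042, 3L:21306138-21318020, minus strand), the strong peak belonged to neighbouring promoters. It spanned 3L:21304376-21304769, with its summit 94 bp from a TSS of CG11309 and 133 bp from one of CG7632, and ranked 43 with a signal of 2735.91. In replicates 2, 3 and 4 it ranked 47, 32 and 71, and its relative signal was 8.39, 9.93 and 8.13, a mean of 8.82 ± 0.973 (SD, n = 3). All 3 replicates placed its summit within 7 bp of the optimal summit. A second summit ranked 2481 at the promoter of Rab26, a small GTPase gene, 3945 bp upstream of the Pc TSS.

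The Pc TSS itself had no optimal summit. The pooled list held a peak 64 bp upstream of it, at rank 7749 with a signal of 134.907. The peak was also in replicate 2 (80 bp upstream, rank 12961) and replicate 3 (71 bp upstream, rank 6748), and not in replicate 4.

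Psc and Su(z)2 encode related RING finger proteins and lie side by side on arm 2R. At Psc (FBgn0005624, 2R:12965997-12980994, minus strand) the promoter summit lay 3 bp from a TSS with a signal of 173.442, at rank 5786. Replicate 2 gave it a relative signal of 0.781 at rank 4032, replicate 3 gave 0.445 at rank 8811, and replicate 4 gave 0.260 at rank 23641. Only replicate 2 had it among its 5806 strongest peaks. A summit in an intron of Psc, 5057 bp from the TSS, was stronger, at rank 1813, with a relative signal of 1.43 ± 0.554 (SD, n = 3).

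The strongest peak near Psc, 2R:12985021-12985401, lay between Psc and Su(z)2, 164 bp from the TSS of lncRNA:CR44339 and 4209 bp upstream of the Psc TSS. It ranked 56 with a signal of 2411.84, and ranked 51, 56 and 107 in replicates 2, 3 and 4. Its relative signal was 8.16, 7.99 and 7.05, a mean of 7.74 ± 0.597 (SD, n = 3). Beyond the 3' end of Psc, 3 intergenic summits ranked 588, 661 and 689, and the TSS nearest to them was that of CG13321, 4745 to 5934 bp away. The peak of rank 661 had no match in replicate 4, and it and the adjacent peak of rank 689 shared their matches in the other two.

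At Su(z)2 (FBgn0265623, 2R:12996501-13007911, plus strand) the promoter summit lay 5 bp from the first TSS, with a signal of 175.997 and rank 5682. It was weak in all 3 replicates, with a relative signal of 0.605, 0.527 and 0.571, a mean of 0.568 ± 0.0389 (SD, n = 3), and ranked 5654, 7007 and 5817. The stronger summits of the window were intergenic. The summit 4872 bp upstream of the first TSS ranked 1274, with a relative signal of 1.78 ± 0.627 (SD, n = 3). The TSS nearest to it was that of CG33798, 2268 bp away. A summit beyond the 3' end ranked 2962, with 0.992 ± 0.0409 (SD, n = 3).

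At Sce (FBgn0003330, 3R:27680431-27682029, minus strand) no list held a promoter summit, the replicate lists with their background peaks included. The single optimal summit of the window lay 233 bp from the TSS of Hsdl2, named for its likeness to hydroxysteroid dehydrogenases, and 4740 bp from the Sce TSS, at rank 4932 with a signal of 196.893. Its ranks were 3101, 6476 and 18281 in replicates 2, 3 and 4, so that only replicate 2 had it among its strongest.

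E(z) (FBgn0000629, 3L:10634575-10638130, minus strand) had 1 optimal summit in its window, and this was a strong promoter peak. It spanned 3L:10637823-10638242, with its summit at 10638094 in the 5' untranslated region, 36 bp from a TSS of E(z) and 52 bp from that of Cnep1r2, a gene of a predicted nuclear envelope phosphatase subunit, so that the gene to which it belongs cannot be told apart. The peak ranked 196 with a signal of 1471.49, and ranked 135, 241 and 385 in replicates 2, 3 and 4. Its relative signal was 5.43, 4.45 and 3.73, a mean of 4.54 ± 0.851 (SD, n = 3). It placed E(z) at 189 among the 3643 genes with a promoter summit.

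The gene of the E(z) partner, esc (FBgn0000588, 2L:11827204-11829405, minus strand), had no optimal summit in its window, and the nearest lay 12.8 kb from its TSS. Replicate lists differed there. Replicate 4 had a promoter summit 19 bp upstream of the TSS at rank 2972, with a relative signal of 0.981, and replicate 3 had one 48 bp upstream at rank 6366, with 0.566. Replicate 2 and the pooled list had none.

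At pho (FBgn0002521, 4:1172469-1181628, minus strand) the nearest optimal summit lay 68.3 kb from the TSS. Replicate 2 held 1 background summit in the window, at rank 29456 and 6.46 kb from the TSS, and replicates 3 and 4 held none. The small chromosome 4 had 15 peaks in the optimal list, and 310, 98 and 7 in the lists of 30000 peaks of replicates 2, 3 and 4. With so unequal a number of peaks, the lists give no comparison of replicates at pho.

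The threshold of the optimal list fell among the summits of Psc and Su(z)2. Just inside it were the promoter summits of Psc (173.442) and Su(z)2 (175.997), followed by the Hsdl2 summit near Sce (196.893). Just outside was a summit 46 bp from the second TSS of Su(z)2, with a pooled signal of 172.329 and rank 5822. A further 2 summits beyond the 3' end of Su(z)2 had 171.638 and 166.363, and a summit 427 bp from the second ph-d TSS had 160.645. The windows held 43 pooled summits below the threshold in all.

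Of the 26 summits, 18 had a match among the 5806 strongest peaks of all 3 replicates, beside 55.3% of all optimal peaks. A further 4 had such a match in 2 replicates and 4 in 1 replicate. In the full lists 25 of the 26 were matched in all 3, and the exception was the summit of rank 661 near Psc, with no match in replicate 4. The full lists include background peaks, and the Psc promoter summit was matched in replicate 4 at rank 23641. The share of all optimal peaks matched in the full lists was not counted, so the 25 have no base to be set against. In the full lists, a promoter summit was found for 6 of the 9 genes in replicate 2, 7 in replicate 3 and 6 in replicate 4, beside 54.7%, 47.6% and 43.3% of all genes, and for 6 in the pooled list, beside 50.3%. Among the strongest 5806 peaks the counts were 5, 3 and 4 of 9, beside 29.2%, 21.6% and 22.5%. The genes found in every replicate were then ph-p, ph-d and E(z), and these 3 alone kept a promoter summit when optimal peaks had to be matched in any 2 replicates. Replicates 2, 3 and 4 differed as well in how many peaks reached a q-value of 0.01, with 13037, 8464 and 5138, and the part of this difference in the counts was not tested.

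**Figure D3:**
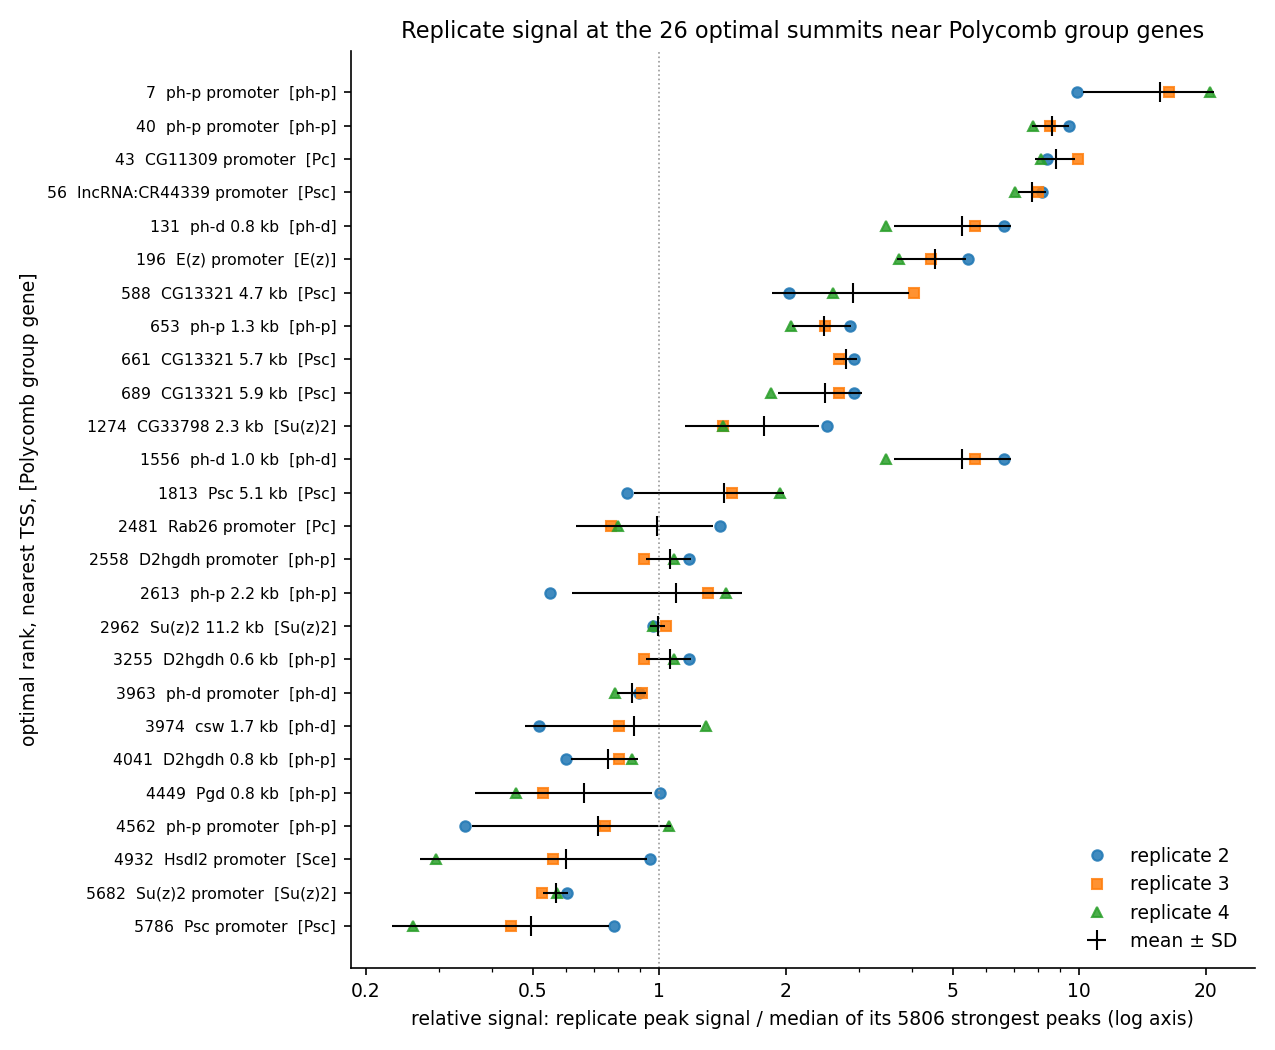
Relative signal (log axis) of the 26 optimal summits in replicates 2, 3 and 4, with the mean and SD in black, ordered by optimal rank. Each label gives the rank, the gene with the promoter or nearest TSS, and in brackets the Polycomb group gene. The dotted line at 1 is the median of the strongest peaks of a replicate. The upper 6 summits lie above 3 in every replicate, and adjacent summits that share a replicate peak (ranks 131 and 1556, 661 and 689, 2558 and 3255) repeat its values.

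Against other genes, the 5 genes with an optimal promoter summit and the 7 with an optimal summit in the window ranged from near the lowest signals to the upper tail, and esc and pho had no optimal signal to place. The strongest promoter peak had a median signal of 236.364 over the 5 genes with one and of 358.47 over all 3643 such genes. Within 10 kb of the gene, a signal as high as that at ph-p was found at 0.237% of all genes, as high as that near Pc at 1.61%, near Psc at 2.08%, near ph-d at 4.51% and at E(z) at 6.63%. The corresponding share was 32.5% for Su(z)2 and 65.1% for Sce. The value of Su(z)2 depends on the edge of its window, which starts at 2R:12986501. The peak of rank 56 between Psc and Su(z)2, with its summit at 12985203, falls just outside it. A strong peak is counted for every gene within 10 kb, so that neighbours share it.

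**Figure D4:**
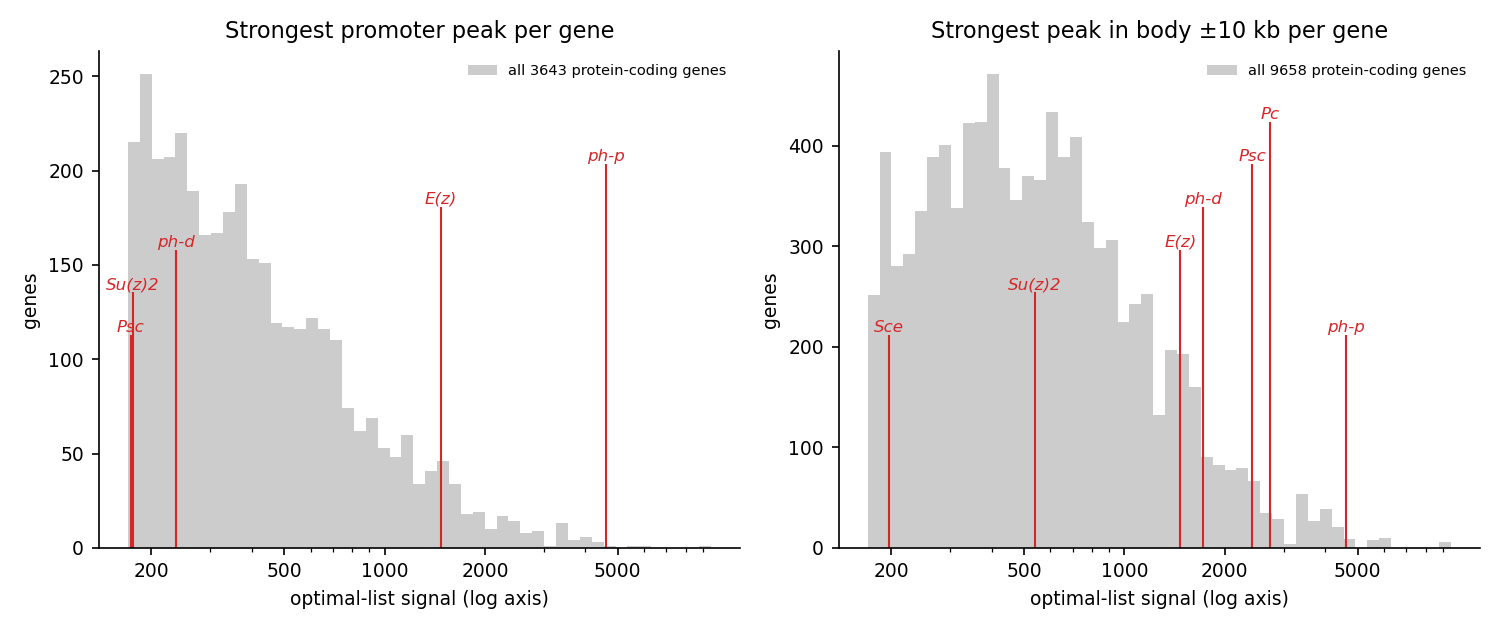
Number of protein-coding genes by the signal (log axis) of their strongest optimal promoter peak (left) and of their strongest optimal peak in the gene body with 10 kb on each side (right), with the Polycomb group genes as red lines whose heights carry no value. On the left ph-p and E(z) lie in the upper tail and ph-d, Su(z)2 and Psc at the low end. On the right Pc and Psc lie in the upper tail too.

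The promoter peaks most like that of ph-p in relative signal over the 3 replicates, among 3009 genes with a match in each, were those of PNPase, CenG1A and mRpS23. The Euclidean distance of log2 relative signal to ph-p was 0.17 for PNPase, a polynucleotide phosphorylase gene, whose peak ranked 11. It was 0.38 for CenG1A, which encodes a GTPase-activating protein, and for mRpS23, a mitochondrial ribosomal protein gene, which share the peak of rank 14. In replicates 2, 3 and 4 the relative signal was 9.70, 15.5 and 18.5 for PNPase, and 9.66, 15.6 and 15.8 for the shared peak of CenG1A and mRpS23, values by which these genes were chosen.

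A set of 3 lists of related genes, chosen with earlier results of these data known, is given for comparison. Of 19 other Polycomb group genes, 7 had an optimal promoter summit (36.8%, beside 26.1% of all genes). They were Su(z)12, which encodes a further subunit of repressive complex 2 (signal 581.646), Sfmbt, the partner of Pho (484.593), mxc (358.47), Jarid2, a cofactor of complex 2 (356.241), l(3)73Ah, Kdm2 and RYBP. None reached the level of E(z). Of these peaks, 5 lay within 500 bp of the TSS of another gene as well. The count was 4, 7 and 4 of 19 when replicate 2, 3 or 4 was left out, when the share of all genes was 16.5%, 18% and 18.3%.

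Of 25 Trithorax group genes, whose products oppose Polycomb silencing, 12 had an optimal promoter summit (48%, beside 26.1% of all genes). The highest was brm, the ATPase of the Brahma remodelling complex, with a signal of 2242.46 at rank 71 and a relative signal of 7.13 ± 0.354 (SD, n = 3), in a promoter shared with Arl1. It was followed by Bap60, a subunit of that complex (487.293), skd, a Mediator subunit gene (432.042), and mor, another Brahma complex subunit gene (405.422). The others were fs(1)h, Snr1, trr, nej, Mnn1, Kdm5, tna and kis. Besides that of brm, the peaks of Bap60, skd, mor, fs(1)h, Snr1 and trr lay within 500 bp of the TSS of another gene. The peak of Mnn1 had a match in replicate 2 alone, and those of Snr1, trr and Kdm5 had none in replicate 3. The count was 6, 10 and 6 without replicates 2, 3 and 4, when the share of all genes was 16.5%, 18% and 18.3%.

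Of 9 genes of proteins that bind PREs, 6 had an optimal promoter summit (66.7%, beside 26.1% of all genes). The highest was Trl, the gene of GAGA factor (877.548), followed by lolal, whose product binds GAGA factor (464.717), psq (443.657) and cg, a zinc finger protein gene (421.913), then Adf1 and Spps. The peaks of cg, Adf1 and Spps also lay within 500 bp of the TSS of another gene. As with the 9 genes themselves, the lists are small and were not tested, and the shares are those of the genes named.

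**Figure D5:**
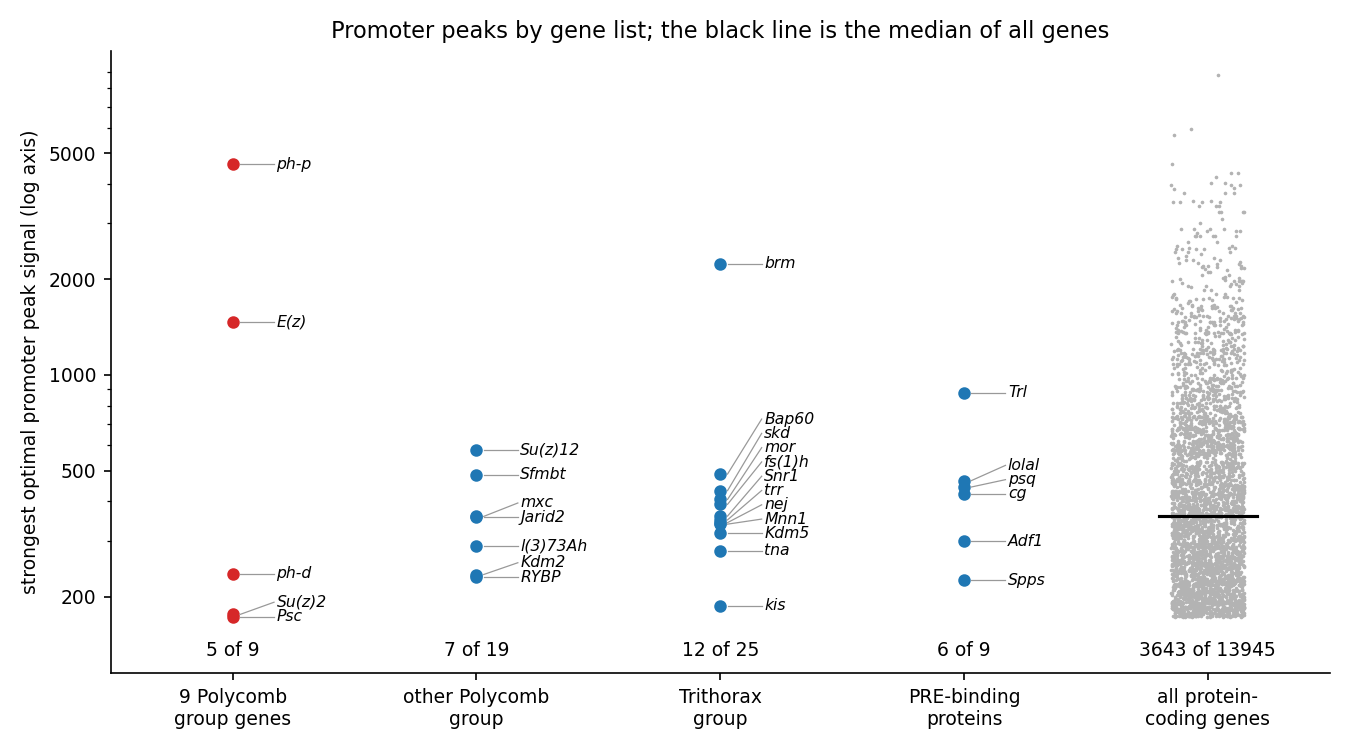
Signal of the strongest optimal promoter peak (log axis) of each gene with one, for the 9 Polycomb group genes, the 3 comparison lists and all protein-coding genes, whose median is the black line. Numbers under the points give genes with a promoter summit of genes listed. The peak of ph-p lies above every gene of the 3 comparison lists, and brm is the highest of those.

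The sequence at the summits near the 9 genes was searched on both strands in windows reaching 100 bp to each side for 9 motifs, chosen with earlier results known. GAGAG, the site of GAGA factor, was in 8 of the 26 windows (30.8%), beside 22.3% of all optimal windows. The promoter windows of Su(z)2 and Psc held 7 and 4 copies of it among 19 in all. Overlapping copies were each counted, and both windows held some, so these are not numbers of separate sites. TAATTA was in 7 windows (26.9%, beside 16.4%), and GCCAT, the core of the Pho site, in 5 (19.2%, beside 26.7%). TTGGCA was in 3 windows (11.5%, beside 13.4%), those of the ph-d summits of ranks 131 and 1556 and of the summit of rank 588 near Psc. TATCGATA was in the Hsdl2 window alone (3.85%, beside 4.63%). The E-box CAGCTG was in 1 window (3.85%, beside 10.7%). CACTGAG was likewise in 1 window, beside 5.22%. CTATCGA was in 1 window, that of the csw intron, beside 6.85%. The core promoter motif GGTCACACT was in none, beside 2.34%. None of the 9 motifs was in the windows of ranks 7 and 40 at ph-p and 43 near Pc. The median GC content was 35.1% in the 26 windows and 36.3% in all, with the lowest value, 25.9%, at the ph-p summit of rank 40 and the highest, 53.2%, at the Su(z)2 promoter.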

How the data were processed

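Peak lists of NfI ChIP-seq in 3 replicates, on dm6 per the file listings, were analysed. The authors made each replicate list (30000 peaks, background included) from 1 alignment and a shared control, a pooled list likewise, and an optimal list by the irreproducible discovery rate. Neither aligner nor caller is given in the sources used here. The deposited signal of a peak has no stated scale and was used within a list or over that list's median. The deposited −log10 q-value counted peaks. No read counts were given, so depth is unknown. TSSs came from Ensembl release 115 (BDGP6.54). A replicate match needed an overlap of at least 1 bp. The ph-p and ph-d sequences were aligned with blastn 2.17.0 (e-value 1e-05), and tables were made with Python 3.11.15 and pandas 2.3.3. Counting was tested on simulated peaks. Genes, lists and motifs were chosen with earlier results of these data known. Named genes were the 9 genes, those with the TSS nearest to each optimal summit, listed genes with a promoter summit (values for the 4 highest of each list) and the 3 most like ph-p. Alternatives were other distances, flanks, overlaps, divisors, windows and leaving out each replicate. Nothing was compared between conditions, since there is 1 group.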

Additional observations from a re-analysis of the deposited data

How the results depend on the processing

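To leave out a replicate, the optimal peaks were limited to those with matches in the other two, among the strongest peaks of each. The 5 genes with a promoter summit then became 3 in each case, when the share of all genes with one, 26.1% at first, was 16.5%, 18% and 18.3% without replicates 2, 3 and 4. The 26 summits became 21, 18 and 19 without replicates 2, 3 and 4. The whole optimal list of 5806 peaks became 4028, 3572 and 3814 in the same order, so the loss was not confined to these windows. The 7 other Polycomb group genes became 4 to 7, the 12 Trithorax group genes 6 to 10 and the 6 PRE-binding genes 5 to 6. The relative signal of the strongest ph-p peak was 13.1 to 18.4. In the stronger 50% of the optimal list, 2 genes (ph-p and E(z)) had a promoter summit, beside 15.8% of all genes, and the windows held 16 summits. A flank of 2 kb left 14 summits. Divided by the median of all replicate peaks, or of the 1000 strongest, the ph-p signal was 51.0 or 4.94, which follows from the divisor. At least 1 of the 9 motifs was in 18 windows, in 10 when windows reached 50 bp to each side and in 25 when they reached 200 bp. With a reach of 50 bp, GAGAG was in 3 windows, TAATTA in 4, TTGGCA in 2, and CACTGAG and CTATCGA in 1 each. The other motifs, GCCAT and TATCGATA among them, were then in none. The share of all optimal windows was not counted at these reaches, nor for at least 1 motif. Whether the counts changed here more than in the whole list is therefore not known. The strongest peak in the Su(z)2 window had a relative signal of 0.908 when the overlap had to cover 50% of the peak, and the cause was not tested. TSS distances of 250 and 1000 bp, and overlap in place of summits, kept 5 genes with a promoter summit. The peaks counted at the polyhomeotic pair changed with the distance, however. At 250 bp ph-p kept only its summit of rank 4562, since those of ranks 7 and 40 lay 484 and 473 bp from a TSS. At 1000 bp the summit of rank 131, which lay 803 bp upstream, became a promoter summit of ph-d. No paired analysis was possible because there is 1 group. Unknown depth and the unstated scale of signal limit every value, an absent peak may lie below the threshold of a list, and the optimal list draws on all 3 replicates.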
